A study of Mus musculus with 12 samples.

Results

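The insulin-like growth factor (IGF) system was followed in adipocytes in which the steroid receptor RNA activator (SRA), a non-coding RNA that coactivates nuclear receptors, was raised or lowered. Its members here were 10 genes of the 18194 named on the array: the ligands Igf1 and Igf2, the receptors Igf1r and Igf2r, and the binding proteins Igfbp2 to Igfbp7. They were found as the 28 probe sets, of 45101, that the platform annotation gives to 1 of these symbols alone. One further probe set is shared between Igf2r and another gene and was not used. For each gene the probe set with the highest mean over the 12 arrays leads, and 23 of the 28 probe sets passed a variance filter of 0.05 over all arrays and were tested. The leading probe set of Igfbp2 did not pass, so 9 of the 10 genes had a test.

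IGF1 and IGF2 are small secreted proteins related to insulin. They signal through the tyrosine kinase IGF1R, while IGF2R, which is also the mannose 6-phosphate receptor of lysosomal enzymes, takes IGF2 up for degradation. IGF binding proteins hold the ligands in serum and around cells and keep them from, or release them to, the receptor. In fat, IGF1 signalling favours growth and differentiation of preadipocytes, and insulin at the high dose of differentiation cocktails can also act through IGF1R.

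Both lines carried a retroviral vector and were taken to adipocytes with the same cocktail of insulin (0.167 µM), the glucocorticoid dexamethasone (1 µM), the phosphodiesterase inhibitor isobutylmethylxanthine (0.5 mM) and troglitazone (5 µM), a ligand of the adipocyte regulator PPARγ. ST2 cells, a mouse marrow stromal line given the strain BC8 in the labels, held empty pMSCV (ST2 control) or pMSCV-SRA (ST2 SRA) and were harvested on day 4. 3T3-L1 cells, a mouse preadipocyte line given the strain Swiss albino, held a control hairpin (shControl) or a hairpin against SRA (shSRA) in pSuperior and were harvested on day 8. The sample labels call the 3T3-L1 control an empty vector, whereas the design text calls it shControl. Each of the 4 groups had 3 arrays, labelled as biological replicates, and all groups had received insulin and dexamethasone. The transgene carried the human SRA sequence, the knockdown used 1 hairpin, and each change of SRA was made in 1 line.

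On the mouse Sra1 probe set, the log2 difference of shSRA from shControl was -2.36 (SE 0.18, limma adjusted p = 5.58e-07). The ST2 difference of 0.22 (SE 0.18, limma adjusted p = 0.484) checks nothing, since the overexpressed RNA was human. Fabp4 and Adipoq, defining genes of adipocytes, had log2 group means of 14.78 and 14.44 in ST2 control and 14.89 and 14.75 in shControl. Neither passed the variance filter. Of 9 adipocyte markers measured 6 were tested, and 5 of these were higher in shControl than in ST2 control at a limma adjusted p under 0.05. Of all probe sets tested 37.4% were higher there, so similar levels of these 2 genes do not show equal differentiation of the lines. ST2 control replicate 2 stood apart. Each array was set against its fellow replicates within the group, and the median deviation over bright probe sets was taken. It was -0.43 for this array, against -0.07 to 0.24 on the other 11. For ST2 control replicates 1 and 3, at 0.24 and 0.18, the reference itself included replicate 2. Member values that move with replicate 2 are given with and without it. Values are log2 RMA units (a robust multi-array average of probe intensities), in which a difference of 1 is a doubling. Probe sets for 43 olfactory receptors, genes not expected in fat cells, served as a reference for background, with a median of 4.85 and a 95th percentile of 6.53. Where the mean of 1 group lay within that range, a fold is given as at least that of the other group over the 95th percentile, and where both did the values are printed without reading a change of the gene from them. Levels are compared only between samples on 1 probe set, never between genes, and in such bulk RNA fewer cells of a type and less RNA per cell cannot be told apart.

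The promoters of 3 genes on which the results below turn are shown first: Igf1, higher in 3T3-L1 on all its probe sets, and Igf1r and Igfbp7, which were lower with SRA. Each is the 250 bases before a RefSeq start on GRCm38.p6, read 5′ to 3′ along the gene. Capitals mark the nuclear receptor half-site AGGTCA or the GC box GGGCGG, each on either strand. The Igf1 window is chr10:87860861-87861110 on the plus strand, the Igf1r window chr7:67952007-67952256 on the plus strand, and the Igfbp7 window chr5:77408046-77408295 on the minus strand. The Igf1 window lies inside the RefSeq gene bounds (chr10:87858265-87937047), so it does not cover the sequence before the outermost start.
Igf1: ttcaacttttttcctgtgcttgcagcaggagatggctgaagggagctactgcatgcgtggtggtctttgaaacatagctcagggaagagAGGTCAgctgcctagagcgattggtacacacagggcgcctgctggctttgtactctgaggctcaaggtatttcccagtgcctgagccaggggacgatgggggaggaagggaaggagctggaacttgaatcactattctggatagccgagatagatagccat
Igf1r: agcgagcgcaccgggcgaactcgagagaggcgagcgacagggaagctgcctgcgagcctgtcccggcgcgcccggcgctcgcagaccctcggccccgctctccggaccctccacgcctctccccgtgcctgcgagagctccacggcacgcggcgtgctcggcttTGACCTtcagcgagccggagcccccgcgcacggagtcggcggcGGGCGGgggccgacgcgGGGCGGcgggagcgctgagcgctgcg
Igfbp7: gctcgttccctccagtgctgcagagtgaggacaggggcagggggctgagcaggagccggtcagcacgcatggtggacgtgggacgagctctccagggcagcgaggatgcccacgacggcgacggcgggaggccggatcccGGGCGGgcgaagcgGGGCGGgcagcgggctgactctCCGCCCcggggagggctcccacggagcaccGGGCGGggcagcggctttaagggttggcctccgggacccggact
The Igf1 window held 1 half-site and no GC box, the Igf1r window 1 half-site and 2 GC boxes, and the Igfbp7 window no half-site and 4 GC boxes. G and C made up 52.8% of the Igf1 window, 77.6% of the Igf1r window and 74.0% of the Igfbp7 window, with 5, 42 and 26 CG dinucleotides. All 10 genes matched the promoter table, with 14 starts between them. A half-site lay in 4 of these 14 windows (1 each of Igf1, Igf2, Igf1r and Igf2r) and a GC box in 6 (of Igf2, Igf1r, Igf2r, Igfbp2 and Igfbp7). Over all 32851 promoters, windows of this length held the half-site in 14.0% and the GC box in 32.7%. These matches are letters in a window, and binding was not measured.

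The ligands showed the widest gap between the lines. On the leading Igf1 probe set, 1452014_a_at, the log2 level was 6.25, 6.47 and 6.22 in ST2 control, 6.26, 5.85 and 6.32 in ST2 SRA, 10.14, 10.35 and 10.53 in shControl, and 10.51, 10.53 and 10.48 in shSRA. Every 3T3-L1 array was above every ST2 array. The log2 difference between shControl and ST2 control was 4.03 (SE 0.17, limma adjusted p = 8.94e-14), and the other 3 Igf1 probe sets gave log2 differences of 2.82 to 5.10, all past the threshold of an adjusted p of 0.05. Since the ST2 control means of all 4 probe sets lay within the background range, these sizes are only bounded: Igf1 was at least 14.0-fold higher in shControl on the leading probe set and at least 4.93-fold to 17.9-fold on the others. ST2 SRA lay within that range too. Within each line Igf1 did not pass the test, with log2 differences of -0.17 (95% interval -0.52 to 0.18) for ST2 SRA and 0.17 (-0.18 to 0.51) for shSRA.

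Igf2, the imprinted ligand best known from fetal growth, read 6.63, 7.77 and 6.75 in ST2 control, 7.19, 7.12 and 6.96 in ST2 SRA, 10.17, 10.39 and 10.51 in shControl, and 10.34, 10.06 and 10.17 in shSRA on the log2 scale. As for Igf1, the lines did not overlap. The high ST2 control value, 7.77, is that of replicate 2. The log2 difference between the control lines was 3.31 (SE 0.22, limma adjusted p = 1.99e-10), 9.89-fold, and 3.67 without that array. The other Igf2 probe set differed by 0.28 on the log2 scale (limma adjusted p = 0.153) and lay within the background range in both groups, so the gap rests on 1 probe set. Between the arms the log2 differences of the leading probe set were 0.04 (95% interval -0.43 to 0.51) in ST2 and -0.17 (-0.64 to 0.30) in 3T3-L1. Without ST2 control replicate 2 the ST2 value was 0.40 (limma adjusted p = 0.0816).

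**Figure D1:**
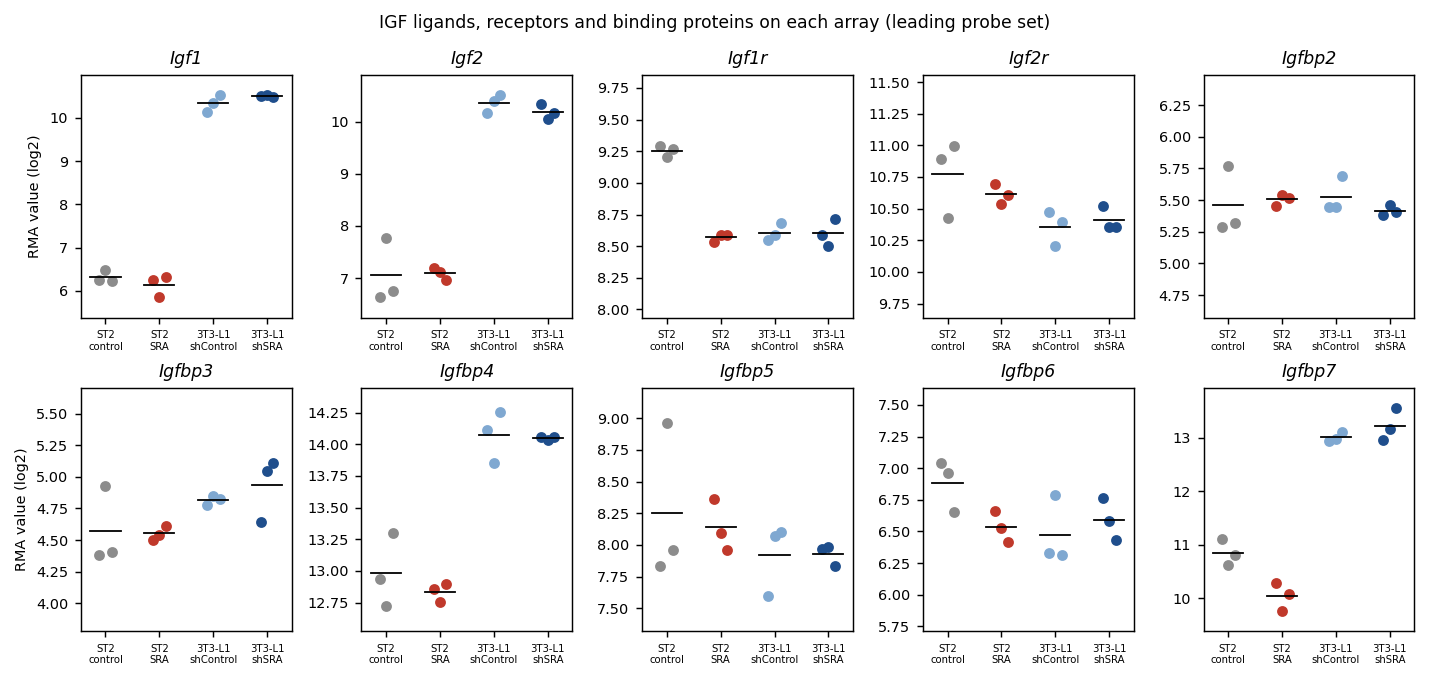
Log2 RMA value of the leading probe set of each gene on each of the 12 arrays; points are arrays, bars are means of 3, and each panel has its own vertical range. Igf1, Igf2, Igfbp4 and Igfbp7 lie higher on every 3T3-L1 array than on any ST2 array, and for Igf1r the 3 ST2 control arrays lie above the other 9.

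Igf1r, the signalling receptor, was lower in ST2 cells with SRA. Its log2 level on 1452982_at was 9.29, 9.20 and 9.27 in ST2 control and 8.53, 8.59 and 8.59 in ST2 SRA, with 8.55, 8.58 and 8.68 in shControl and 8.59, 8.50 and 8.71 in shSRA. All 3 ST2 control arrays were above the other 9 arrays, and the remaining 3 groups overlapped. In ST2 SRA the log2 difference was -0.69 (SE 0.14, limma adjusted p = 0.00423), 1.61-fold lower, and it was -0.71 without ST2 control replicate 2. The other Igf1r probe sets that could be tested were also lower, 1426565_at by a log2 difference of -0.56 (limma adjusted p = 0.0341) and 1428967_at by -0.68 (limma adjusted p = 0.0262). The remaining 2, 1446303_at and 1452108_at, did not pass the filter and differed by 0.04 and 0.05.

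Knockdown left Igf1r without a detectable difference, -0.005 on the log2 scale (95% interval -0.31 to 0.30). Between the control lines Igf1r was lower in 3T3-L1, with a log2 difference of -0.65 (SE 0.14, limma adjusted p = 0.00079). Between shSRA and ST2 SRA, which share no array with the controls, it was 0.03 (SE 0.14, limma adjusted p = 0.864). The line differences in the 2 pairs of arms differed by 0.68 (SE 0.20, unadjusted p = 0.00337, limma adjusted p = 0.106), which did not pass the threshold.

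Igf2r, the clearing receptor, read 10.89, 10.43 and 10.99 in ST2 control, 10.70, 10.54 and 10.61 in ST2 SRA, 10.47, 10.21 and 10.39 in shControl, and 10.52, 10.35 and 10.35 in shSRA. The low ST2 control value is again that of replicate 2, and the control groups of the lines overlapped. The log2 difference between the control lines was -0.41 (SE 0.17, limma adjusted p = 0.0382), or -0.58 without that array, and 1424111_at gave -0.76 (SE 0.18, limma adjusted p = 0.00113). The call of the leading probe set was lost on leaving out ST2 control replicate 1 or 3, shControl replicate 2 or 3, or shSRA replicate 2, with limma adjusted p from 0.0506 to 0.149 and log2 differences from -0.43 to -0.30. In ST2 SRA the log2 difference was -0.16 (95% interval -0.51 to 0.19), or -0.33 without ST2 control replicate 2 (limma adjusted p = 0.107), and in shSRA 0.05 (-0.30 to 0.40), and neither passed.

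Igfbp7, an extracellular matrix protein that binds IGFs weakly, had the largest difference with SRA overexpression among the 10 leading probe sets. Its log2 level on 1423584_at was 11.11, 10.61 and 10.81 in ST2 control, 10.27, 9.77 and 10.08 in ST2 SRA, 12.94, 12.98 and 13.11 in shControl, and 12.96, 13.17 and 13.55 in shSRA. ST2 SRA was lowest, ST2 control next, without overlap, and the 2 3T3-L1 groups, which overlapped, were highest. The ST2 SRA log2 difference was -0.80 (SE 0.19, limma adjusted p = 0.00940), 1.74-fold lower, and -0.92 without ST2 control replicate 2, but without ST2 SRA replicate 2 it was -0.67 and not past the threshold (limma adjusted p = 0.0875).

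The probe sets of Igfbp7 disagreed in size and, in ST2 SRA, in sign. On 1423585_at the ST2 SRA log2 difference was -0.25 (SE 0.18, limma adjusted p = 0.424), with groups that did not overlap but both lay within the background range. On 1437804_at, which did not pass the filter, it was 0.23. That probe set had group means of 8.26 in ST2 SRA and 8.03 in ST2 control, above the background range. Between the control lines the leading probe set was higher in 3T3-L1 by 2.17 on the log2 scale (SE 0.19, limma adjusted p = 7.14e-09), 4.50-fold, and 1423585_at by 1.64 (limma adjusted p = 1.81e-07), at least 1.58-fold, while 1437804_at differed by 0.06. Knockdown gave 0.22 (95% interval -0.17 to 0.61) on the leading probe set and 0.35 (unadjusted p = 0.0599 in limma) on 1423585_at.

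Igfbp4, which sequesters IGFs until the protease PAPP-A cleaves it, read 12.94, 12.72 and 13.30 in ST2 control, 12.85, 12.75 and 12.89 in ST2 SRA, 14.11, 13.85 and 14.25 in shControl, and 14.05, 14.03 and 14.06 in shSRA. Every 3T3-L1 array was above every ST2 array. The log2 difference between the control lines was 1.09 (SE 0.17, limma adjusted p = 1.96e-05), 2.13-fold, and the other 5 Igfbp4 probe sets gave 1.15 to 2.27, all past the threshold. Neither SRA comparison moved it past the threshold, with log2 differences of -0.15 (95% interval -0.50 to 0.20) in ST2 SRA, or -0.28 without ST2 control replicate 2 (limma adjusted p = 0.249), and -0.02 (-0.38 to 0.33) in shSRA.

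Igfbp6, a binding protein that prefers IGF2, read 7.04, 6.97 and 6.65 in ST2 control, 6.66, 6.52 and 6.41 in ST2 SRA, 6.33, 6.79 and 6.31 in shControl, and 6.77, 6.58 and 6.43 in shSRA. All 4 groups overlapped with a neighbour, and the shControl mean of 6.48 lay just within the background range. Between the control lines its log2 difference was -0.41 (SE 0.17, limma adjusted p = 0.0465), close to the threshold and lost on leaving out any 1 array except ST2 control replicate 3 or shControl replicate 2 (limma adjusted p from 0.0528 to 0.160 where lost), and in the other arms it was 0.06 (limma adjusted p = 0.782). The ST2 SRA log2 difference was -0.35 (SE 0.17, unadjusted p = 0.0567, limma adjusted p = 0.240).

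Of the last 3 binding proteins, Igfbp5 and Igfbp3 were not called in any comparison over all arrays, and Igfbp2 had no test. Igfbp5, which attaches to matrix, read 7.83, 8.97 and 7.96 in ST2 control, where replicate 2 is again the high value, and 7.59 to 8.36 on the other 9 arrays. Its log2 difference was -0.11 in ST2 SRA, 0.01 in shSRA and -0.33 between the control lines (limma adjusted p = 0.209). Without that array both ST2-dependent values turned positive, 0.24 in ST2 SRA (limma adjusted p = 0.420) and 0.03 between the lines. Igfbp3, the main serum carrier, lay between 4.38 and 5.11 over the 12 arrays, all within the background range, with log2 differences of -0.02, 0.12 and 0.24 in the same order. Without ST2 control replicate 2 the Igfbp3 difference between the control lines was 0.42 (limma adjusted p = 0.0146), a difference between groups that were both within that range. Igfbp2, a binding protein of circulation and adipose tissue, lay between 5.29 and 5.77, also within it, and was not tested.

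Counted over leading probe sets, SRA overexpression in ST2 lowered 2 of 9 genes tested (Igf1r and Igfbp7) and raised none. Among all 19068 probe sets tested, 7.98% were called, 2.33% higher and 5.65% lower. Among leading probe sets of named genes the share was 9.69%. The median log2 difference was -0.15 over the 10 leading probe sets and 0.06 over all 45101 probe sets, which include those that the filter removed. The groups did not overlap for Igf1r and Igfbp7 alone, and over all probe sets tested for 24.2%.

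With shSRA none of the 9 genes was called, and none had an unadjusted p under 0.05 in limma. The background was 0.0734%, or 14 probe sets, and 0.0977% among leading probe sets of named genes. No leading probe set had groups that did not overlap, against 10.2% of all probe sets tested. Same-numbered 3T3-L1 arrays deviated together, and a fit blocked on that number called 101 probe sets in all, with 0 member genes among them. The median log2 difference was 0.03 over the 10 leading probe sets and -0.01 over all 45101 probe sets, which include those that the filter removed.

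**Figure D2:**
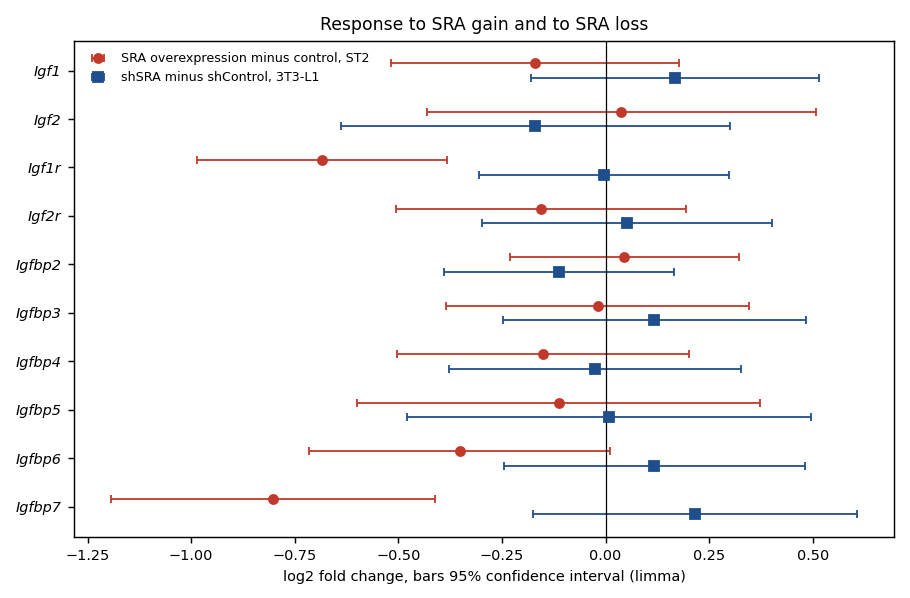
Log2 fold change of each leading probe set with its 95% confidence interval from limma, for SRA overexpression in ST2 (circles) and SRA knockdown in 3T3-L1 (squares); for Igfbp2 the interval is from the fit without the filter. Only the ST2 intervals of Igf1r (-0.99 to -0.38) and Igfbp7 (-1.19 to -0.41) exclude 0.

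Between the control lines 7 of 9 genes were called, 4 higher in 3T3-L1 (Igf1, Igf2, Igfbp4 and Igfbp7) and 3 lower (Igf1r, Igf2r and Igfbp6). The background was 63.6% of probe sets, 37.4% higher and 26.2% lower, and a variance filter over arrays of both lines itself keeps probe sets that differ between them; without it 27.7% were called. Among leading probe sets of named genes the share was 66.9%. The control groups did not overlap for 5 of the 10 genes, and for 62.9% of all probe sets tested. The members' count is read against these shares. The median absolute log2 difference was 0.53 over the 10 leading probe sets and 0.20 over all 45101 probe sets. The latter include those that the filter removed, so these 2 medians are not from like sets and are not compared. Line, day of harvest, vector, growth medium and CO2 (5% for ST2 and 10% for 3T3-L1) cannot be told apart in this comparison, and it shares its arrays with both SRA comparisons. Without ST2 control replicate 2 the log2 differences were 4.11 for Igf1, 0.96 for Igfbp4, 2.05 for Igfbp7 and -0.68 for Igf1r, all still past the threshold in limma, and Igfbp6, at -0.37, was not (limma adjusted p = 0.0745).

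In shSRA against ST2 SRA, 4 genes were called, Igf1, Igf2, Igfbp4 and Igfbp7, and none was called lower. The share of all probe sets called between these arms is not given here, and between the control lines it was 63.6%. The count is therefore not read as a trait of the members. Only for Igfbp7 did the 2 line differences differ past the threshold, 2.17 in the controls and 3.19 in the other arms, by 1.02 (SE 0.26, limma adjusted p = 0.0466), where 2.32% of all probe sets did. By construction this is also the difference between the 2 SRA responses, so it is not separate from them.

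**Figure D3:**
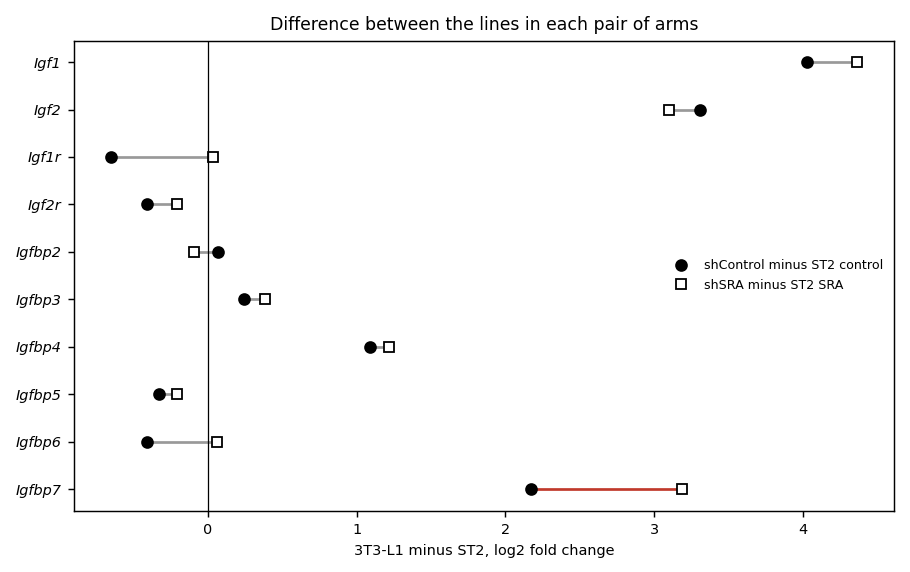
Log2 difference of 3T3-L1 minus ST2 for each leading probe set, in the controls (filled circles) and between shSRA and ST2 SRA (open squares). The line joining the Igfbp7 values, 2.17 and 3.19, is red because their difference passed the threshold; Igf1r moves from -0.65 to 0.03.

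**Figure D4:**
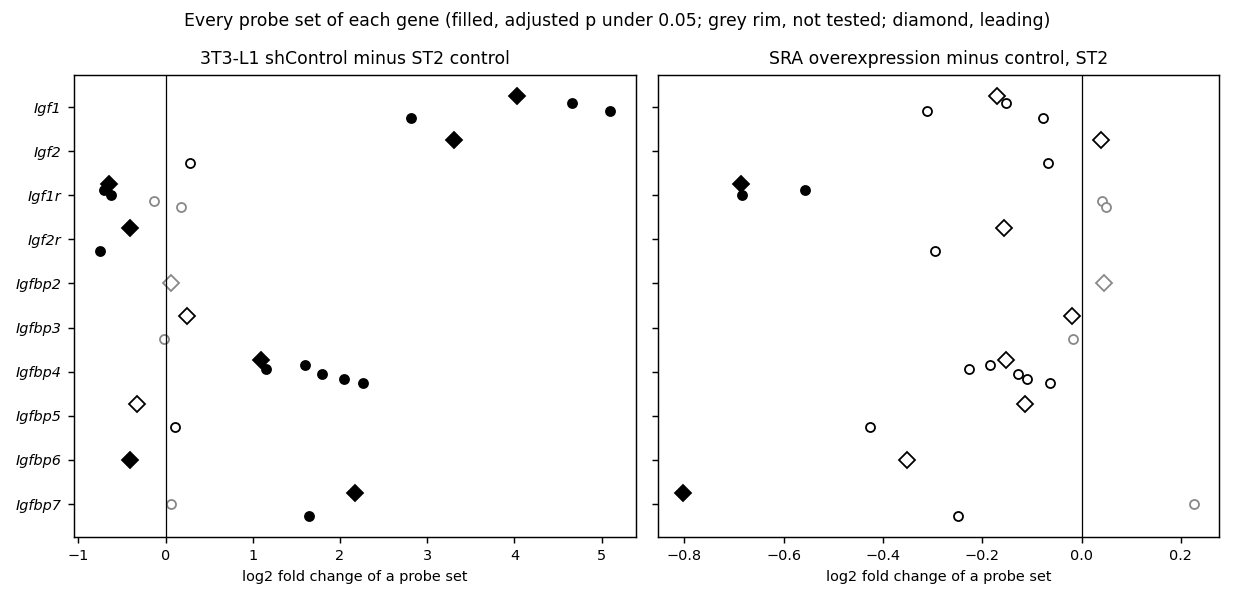
Log2 fold change of each of the 28 probe sets, for the control lines (left) and for SRA overexpression in ST2 (right); diamonds are leading probe sets, filled symbols passed an adjusted p of 0.05 and grey rims were not tested. All 4 Igf1 and all 6 Igfbp4 probe sets are higher in 3T3-L1, whereas the probe sets of Igf2 and Igfbp7 spread widely.

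Genes around the IGF system were taken from lists of known roles, and their counts stand against 5.65% of probe sets lower and 2.33% higher in ST2 SRA and 63.6% called between the control lines. Of 11 further IGF carriers and low-affinity binders, 7 passed the filter and were tested. In ST2 SRA 2 were lower and none higher, the matricellular proteins Ccn2 (log2 difference -1.13, SE 0.26, limma adjusted p = 0.00749) and Ccn5 (-0.97, SE 0.18, limma adjusted p = 0.00174). The median over all 11 was -0.05. Between the control lines 1 of the 7 was higher in 3T3-L1, Igfals, the acid-labile subunit of the serum IGF complex (1.56, limma adjusted p = 1.04e-05), and 4 were lower, with Ccn5 at -3.01, Ccn2 at least 25.5-fold lower and Crim1 at least 1.97-fold lower, the last 2 within the background range in shControl. The remaining gene of these 4 lay within the background range in both control groups, so no change of that gene is read from its call.

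Of 18 binding protein proteases and their inhibitors, 11 were tested. In ST2 SRA 5 were lower and none higher: the inhibitor Timp1 (log2 difference -1.62, limma adjusted p = 4.50e-06) and the proteases Mmp14 (-0.95), C1s1 (-0.86), Adamts1 (-0.84) and Bmp1 (-0.83). The median over all 18 was -0.23. In shControl against ST2 control 3 of the 11 were higher and 4 lower, a share close to that of all probe sets. The widest log2 differences were those of Mmp2 (4.82), Timp1 (-2.79), Adamts1 (2.15) and Pappa, the protease of Igfbp4 (1.40, SE 0.19, limma adjusted p = 3.51e-06).

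Downstream of the receptors, 8 of 15 genes of the insulin receptor family and its adaptors were tested. In ST2 SRA 1 was higher, Insr itself (log2 difference 0.67, SE 0.17, limma adjusted p = 0.0145), and none was lower, so Insr was higher where the related Igf1r was lower. Between the control lines 4 of the 8 were higher in 3T3-L1 and 1 lower. Insr (1.07, limma adjusted p = 1.91e-05), the substrate Irs2 (1.43, limma adjusted p = 7.04e-07) and the adaptor Grb14 (1.15, limma adjusted p = 0.000455) were higher, whereas Grb10, an adaptor related to Grb14, was at least 56.1-fold lower (limma adjusted p = 1.59e-15), with shControl within the background range.

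Of 6 genes measured of the growth hormone axis, which drives Igf1 in liver, 3 were tested. Socs2, an inhibitor of growth hormone signalling, was lower in ST2 SRA (log2 difference -1.13, limma adjusted p = 0.000348) and lower in shControl than in ST2 control (-1.07, limma adjusted p = 5.40e-05). Stat5a and Stat5b, which carry growth hormone signals to Igf1, were higher in 3T3-L1 than ST2 controls by 0.72 and 0.90 (limma adjusted p = 0.00204 and 0.000479). Of 7 imprinted growth genes measured, a group to which Igf2 and Igf2r belong, 3 were tested and none was called with SRA. All 3 were higher in 3T3-L1, Dlk1 at least 42.2-fold, Peg3 at least 4.42-fold and Plagl1 at least 1.49-fold, with ST2 control within the background range for each. Of the 2 imprinted members, Igf2 was higher there (log2 difference 3.31) and Igf2r lower (-0.41), a call lost on leaving out some single arrays. The list does not hold every imprinted gene. Grb10, at least 56.1-fold lower in shControl, was counted with the adaptors above and not in it. Of 10 genes measured of the mannose 6-phosphate pathway, in which Igf2r acts, 8 were tested, of which 1 was higher and 4 were lower in 3T3-L1, again close to the share of all probe sets, and none was called with SRA. Of 5 genes measured that are tied to Igf2 mRNA-binding proteins, 2 were tested, and Hmga2 was lower in ST2 SRA by a log2 difference of -1.24 (limma adjusted p = 0.000674). Hmga2 was also lower in shControl than in ST2 control, by a wider log2 difference of -5.22 (limma adjusted p = 7.20e-14). None of these lists had a gene called with shSRA.

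Markers of precursor cells moved with the ST2 results. Of 9 preadipocyte and fibroblast markers measured, all tested, 5 were lower in ST2 SRA and none higher, where 5.65% of all probe sets tested were lower. Their summed linear level was 44410 to 63200 in ST2 control and 28350 to 35930 in ST2 SRA. Of 9 adipocyte markers 6 were tested and 2 were higher, against 2.33% of all probe sets tested, with sums of 88400 to 114700 and 116600 to 122300. The lowest ST2 control sum of each set is that of replicate 2, and without it the ranges were 59260 to 63200 and 99260 to 114700. The part of these markers in the lower Igf1r and Igfbp7 was not tested. The adipocyte sum was also higher in shControl, 152900 to 169200, where Igf1 and Igf2 were high. Between the control lines 4 precursor markers were higher in shControl and 4 lower. Their sum was 43270 to 43970 in shControl, under that of every ST2 control array, where Igf1r was lower but Igfbp7 higher in shControl. What the markers have to do with these differences was not tested. Of 6 macrophage and blood markers 2 were tested and of 4 osteoblast markers 1, and none of these was called in either SRA comparison. No endothelial marker of 4 passed the filter.

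Profiles over the 12 arrays were compared by the root mean square difference of log2 values centred per gene. The most similar genes were Igsf3 (0.097), Il33 (0.10, with group means within the background range) and Etv4 (0.10) for Igf1r. For Igfbp7 they were Rnase4 (0.21), Adamts12 (0.22) and Pcdhb9 (0.24, with both ST2 group means within the background range). Igsf3 had log2 group means of 8.56 in ST2 control, 7.71 in ST2 SRA, 7.83 in shControl and 7.69 in shSRA. Rnase4, a secreted ribonuclease, had means of 8.17, 7.43, 10.57 and 10.46 in the same order.

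On the genome, Igfbp2 (chr1:72824480-72852474) and Igfbp5 (chr1:72858065-72874865) are neighbours. Igfbp5 was not called in any comparison here, and Igfbp2 was not tested. Igf1r lies at chr7:67952257-68233668 and Igf2 on the same chromosome at chr7:142650768-142666816, Igf1 at chr10:87858265-87937047 and Igfbp7 at chr5:77349240-77408045. These are RefSeq gene bounds on GRCm38.p6, and the positions of the probes were not used here.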

How the data were processed

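Total RNA (5 µg per array) was hybridised to mouse whole-genome arrays from Affymetrix. The deposited values are log2 units that the authors made by RMA (background correction, quantile normalization and summary per probe set). The submitters' processing notes name affy and limma without versions. Quantile normalization of probes brings arrays to nearly the same distribution, so a change shared by most genes is largely removed. The upper quartiles of the deposited values still ran from 8.40 (ST2 control replicate 2) to 8.78.

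Groups were taken from the sample labels. The 19068 of 45101 probe sets with a variance of at least 0.05 over 12 arrays entered 1 limma model (limma 3.58.1, R 4.3.3) over the 4 groups, with moderated tests and Benjamini-Hochberg adjustment per comparison. The script was tested on simulated data. Platform annotation gave 34958 probe sets 1 symbol, 932 several and 9211 none. With 3 arrays per group the number of arrays limits precision, and p-values measure the spread between these cultures. Same-numbered arrays correlated in their deviations at 0.59, 0.59 and 0.38 in 3T3-L1, so the numbers pair there. The SEs, intervals and p-values printed for shSRA are from the fit without that pairing, and only counts are given from the blocked fit. The members and gene lists were chosen with earlier results of these data known. The genes named are the members, Sra1, up to 4 called genes of a list by size in each comparison, and the 3 nearest to each member called with SRA. Bmp1, Fabp4 and Adipoq were added after their values were seen. Alternatives were filters, replicate block, normalization, array weights, probe set choice and leaving out arrays.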

Additional observations from a re-analysis of the deposited data

Results flagged for a closer look

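The difference between the lines in Igfbp7 was not the same in both pairs of arms. It was 2.17 on the log2 scale between shControl and ST2 control and 3.19 between shSRA and ST2 SRA, and the interaction was 1.02 (SE 0.26, limma adjusted p = 0.0466), close to the threshold of 0.05. By construction the interaction is also the shSRA response (0.22) minus the ST2 SRA response (-0.80), so it is not separate evidence from them. It was tested on the leading probe set alone. On 1423585_at the shSRA and ST2 SRA responses were 0.35 and -0.25, with both ST2 groups within the background range. On 1437804_at, which did not pass the filter, they were -0.04 and 0.23. The interaction test was chosen after the values had been seen.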

How the results depend on the processing

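Igf1r in ST2 SRA was past the threshold in all 21 alternatives that gave a p (limma adjusted p from 1.29e-06 to 0.0423), and Igfbp7 in 20 of 22 (7.86e-05 to 0.194). With limma array weights 5 member genes were called in ST2 SRA, 1 higher (Igf2) and 4 lower, and 7327 probe sets. With the mean of all probe sets of a gene 0 members were called, since Igf1r fell under the filter and Igfbp7 averaged -0.28 (limma adjusted p 0.194). Leaving out 1 array gave 1 to 2 members. All probe sets called in ST2 SRA numbered 1522, against 3023 with the replicate block, 947 gene means, 1008 by the nested F classification, 994 with ST2 arrays alone, and 749 to 2259 on leaving out 1 array. With shSRA the 14 became 6 without the filter, 3 with a filter on dim probe sets, 101 with the replicate block, 6 after a second quantile normalization, 4 with arrays centred on bright probe sets, 90 with array weights, 8 gene means, 90 by nested F, 4 with 3T3-L1 arrays alone, and 5 to 17 on leaving out 1 array; no member was called in any. Between the lines 5243 gene means were called against 12122 probe sets, and 10510 to 12520 on leaving out 1 array. In the other arms, for which no share of all probe sets is given, 4 members were called and 0 lower. There Igf1r (0.0313) and Igfbp6 (0.0600) changed sign. Leaving out 1 array gave 5 to 7 members between the lines, 4 to 5 higher and 1 to 2 lower. Igf2r kept its call in 17 of 23 alternatives and Igfbp6 in 8. The replicate block changed no member call; in ST2 same-numbered arrays correlated at 0.04, 0.27 and 0.53, so the numbers were not taken as pairs there. The causes of these shifts were not tested.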
